A study of Mus musculus with 9 samples.

Results

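The photoreceptor transcription factors are the DNA-binding proteins that set and keep the gene programmes of rods and cones, and 10 of them were named for this account: Crx, Nrl, Nr2e3, Otx2, Rorb, Thrb, Rxrg, Neurod1, Esrrb and Mef2d. Members were chosen by gene symbol, and every probe set that the array annotation gives to 1 such symbol was taken. Of the 10 genes, 9 had at least 1 such probe set, among 18193 genes with one on the array, and together they held 17 probe sets. Nr2e3 was not analysed here. Each gene was represented by its brightest probe set, judged by its mean signal, and its other probe sets were read beside it. Of the 9 genes, 8 passed the filter on dim signals and entered the test over 12761 genes, whereas Thrb did not.

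The retinas came from female Babl/c mice, a spelling of the labels for the albino BALB/c strain, and the mice were 10 weeks old. The first group lived under white LEDs rated at a colour temperature of 2954K, a warm white, and the second under LEDs rated at 7378K, a cooler white with more blue. Both LED groups had 14 days at 1000 lx with 12 h on and 12 h off, and the controls lived in a dark environment for which the labels give the same hours and no illuminance. Each array held a pool of 3 right-eye retinas, with the neurosensory layer separated from the pigment epithelium, and each group had 3 pools. Signals are on the log2 scale of the deposited values, so that a difference of 1 is a doubling. Levels are compared only within a probe set, because probe sets differ in how brightly they bind.

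In the mouse retina, Otx2 acts early to commit progenitors to the photoreceptor fate and switches on Crx, and both bind DNA through a homeodomain. Crx drives most genes of the phototransduction cascade in rods and cones. Nrl, a basic leucine zipper protein of the Maf family, works with Crx on rod genes and keeps the cells from the cone fate, and Rorb, an orphan nuclear receptor, acts upstream of Nrl. Thrb, the thyroid hormone receptor beta, and Rxrg, the retinoid X receptor gamma, pattern the cone opsins. Neurod1, a basic helix-loop-helix protein, sustains photoreceptors and cone opsin expression. Esrrb, an oestrogen-related orphan receptor enriched in rods, is needed for their survival, and Mef2d, a MADS-box factor, acts with Crx at photoreceptor enhancers.

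The promoters below belong to Crx, whose probe sets differed from control in opposite directions, to Esrrb, the single member that changed, and to Rorb, whose 3 probe sets were all lower on average in both LED groups than in controls. Sequences are from RefSeq on build GRCm38.p6, from 250 bases before to 50 bases after an annotated start, read 5′ to 3′ on the strand of the gene. Capitals mark matches to any of 3 short motifs, searched on both strands: TAATCC (reverse GGATTA), the core bound by CRX and OTX2, TGCTGA (reverse TCAGCA), the core of the element bound by NRL, and AGGTCA (reverse TGACCT), the hexamer bound by nuclear receptors. The letters of the 3 motifs do not overlap in the sequences printed. The Crx promoter spans chr7:15879906-15880205 on the minus strand. The Esrrb promoters span chr12:86360867-86361166 and, for a second annotated start, chr12:86421394-86421693, both on the plus strand. The Rorb promoters span chr19:19111147-19111446 and, for a second annotated start, chr19:19001068-19001367, both on the minus strand.
Crx: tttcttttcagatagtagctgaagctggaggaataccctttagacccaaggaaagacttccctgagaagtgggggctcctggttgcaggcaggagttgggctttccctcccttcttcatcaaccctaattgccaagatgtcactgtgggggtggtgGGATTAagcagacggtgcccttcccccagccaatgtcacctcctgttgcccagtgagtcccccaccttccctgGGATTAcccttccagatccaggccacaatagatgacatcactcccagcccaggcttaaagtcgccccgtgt
Esrrb, first start: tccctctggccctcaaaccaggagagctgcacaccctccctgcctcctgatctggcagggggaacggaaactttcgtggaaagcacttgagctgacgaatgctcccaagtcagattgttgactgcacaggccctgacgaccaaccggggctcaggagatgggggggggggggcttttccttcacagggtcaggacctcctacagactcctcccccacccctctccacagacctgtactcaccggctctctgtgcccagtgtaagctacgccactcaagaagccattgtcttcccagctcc
Esrrb, second start: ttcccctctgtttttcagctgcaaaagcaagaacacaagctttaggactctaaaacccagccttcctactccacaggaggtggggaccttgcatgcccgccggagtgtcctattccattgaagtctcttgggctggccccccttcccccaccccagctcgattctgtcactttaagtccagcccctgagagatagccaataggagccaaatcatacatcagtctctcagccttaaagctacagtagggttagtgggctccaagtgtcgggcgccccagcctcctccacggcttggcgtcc
Rorb, first start: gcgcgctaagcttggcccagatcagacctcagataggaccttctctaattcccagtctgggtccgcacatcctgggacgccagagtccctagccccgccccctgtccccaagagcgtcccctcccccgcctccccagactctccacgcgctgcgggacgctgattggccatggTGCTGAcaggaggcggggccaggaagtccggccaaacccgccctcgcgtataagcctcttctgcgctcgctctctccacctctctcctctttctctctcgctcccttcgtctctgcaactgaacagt
Rorb, second start: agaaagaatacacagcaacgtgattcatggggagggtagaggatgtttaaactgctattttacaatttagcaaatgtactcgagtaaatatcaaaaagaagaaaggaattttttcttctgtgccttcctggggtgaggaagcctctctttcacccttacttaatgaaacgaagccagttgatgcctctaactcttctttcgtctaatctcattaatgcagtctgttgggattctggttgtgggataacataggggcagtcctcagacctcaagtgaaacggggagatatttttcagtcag
The Crx window holds the CRX and OTX2 core in its reverse form at 2 places, starting 94 and 21 bases before the start. Neither Esrrb window holds any of the 3 motifs, and the first Rorb window holds the NRL core, starting 77 bases before the start. Over the 16 promoters that RefSeq gives to the 9 genes, the CRX and OTX2 core was present in 3, of Crx, Otx2 and Thrb, against 7.06% of all 32851 promoters. The NRL core was present in 5 of the 16, against 19.5% of all, and the nuclear receptor hexamer in 2, against 16.3% of all. A match is a stretch of letters and not a site shown to be bound.

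The rod gene Gnat1 and the cone gene Opn1sw read above the dim filter of 5.91 on every array. By their mean signal, 27 of 27 listed rod genes and 12 of 13 listed cone genes with a probe set passed that filter. Gnat1, the rod transducin alpha subunit, read between 14.38 and 14.98, and Opn1sw, the short-wavelength cone opsin, between 13.49 and 13.92. Marker genes of other tissue were unevenly carried: the mean of 9 lens genes was 10.37, 8.51 and 13.05 in the third 2954K, 7378K and control pools and at most 5.91 in the other 6. The mean of 4 muscle genes was 8.94 in the third control pool and 6.19 to 6.88 in the other pools. The mean of 11 pigment epithelium markers was 9.36 to 10.68 in 2954K pools, 8.44 to 9.75 in 7378K pools and 8.38 to 10.63 in controls. Rpe65, the retinoid isomerase of the pigment epithelium, read between 9.73 and 11.83 in pools from which that layer had been separated, and Otx2 is also expressed in that layer.

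A second property of the arrays runs through the results. The array carries probe sets at the 3′ and 5′ ends of Gapdh and beta-actin, and the 3′ signal less the 5′ signal, averaged over both genes and called the 3′ excess here, is larger where RNA is less intact or labelled products are shorter. The 3′ excess was 2.78, 0.21 and 1.05 in 2954K pools, 1.80, 1.67 and 1.55 in 7378K pools, and 0.33, 0.20 and 0.42 in control pools. All 3 7378K pools stood above all 3 controls, as did 2 of the 2954K pools, while the second 2954K pool lay within the control range. The 7378K pools exceeded the controls by 1.36 (two-sided exact permutation p = 0.1, the smallest that 3 pools against 3 allow), and the 2954K pools exceeded them by 1.03 (exact permutation p = 0.3). The dap spike-in, bacterial RNA added to the sample, had a 3′ excess larger by 1.14 in 7378K pools and by 0.58 in 2954K pools than in controls (exact permutation p = 0.1 and 0.4). Because light group and this property moved together in the 7378K pools, 7378K differences of the members that changed call or sign with it as a covariate, or moved by over 1.5 times, are given with those values.

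Of the 8 members tested, 1 changed, and in 1 contrast: Esrrb fell in 7378K retinas. For 7378K against control, 1 of 8 members passed an adjusted p under 0.05 and it was lower, where 3.52% of all 12761 genes passed, 1.16% as lower. At an unadjusted limma p under 0.05 there were 4 of the 8: Esrrb, Rorb and Nrl as lower and Mef2d as higher. The share of all genes at that level is not given here for 7378K. For 2954K against control, 0 of 8 members passed by limma, where 1.22% of all genes did, and 1 of the 8 had an unadjusted p under 0.05, where 13.1% of all genes did. For 7378K against 2954K, 0 of 8 members passed by limma, as did 0.0% of all genes, and 1 of the 8, Esrrb, had an unadjusted p under 0.05, where 4.07% of all genes did. The median difference of the 8 members was -0.044 for 7378K and -0.075 for 2954K against control, where the medians of all genes tested were 0.045 and 0.011. Both LED groups were set against the same 3 control pools, so the 2 contrasts are not independent of each other. In whole retina, fewer photoreceptors and less RNA per photoreceptor cannot be told apart.

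**Figure D1:**
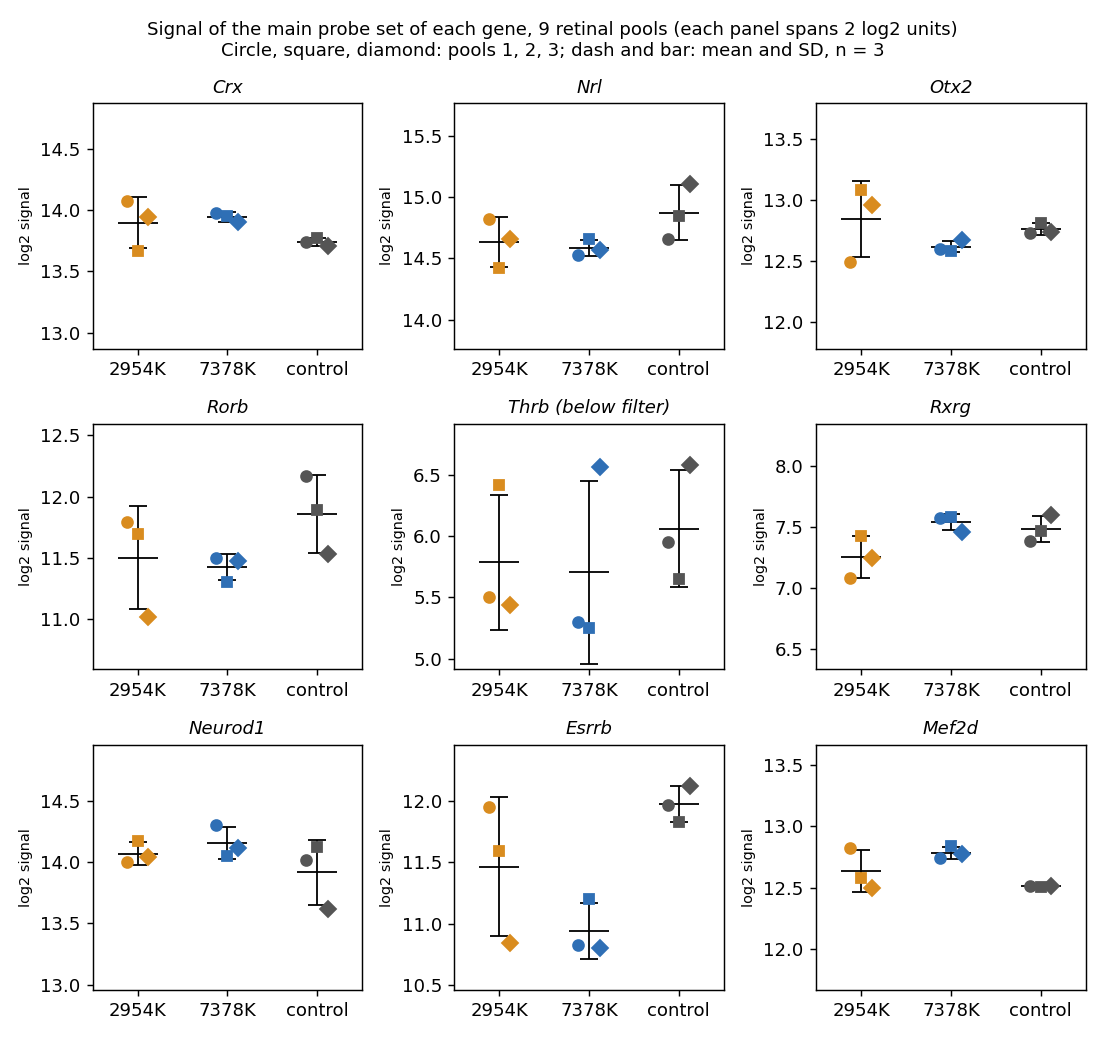
Log2 signal of each member's main probe set in every pool, with 1 panel per gene, 3 points per group for 2954K, 7378K and control, and a bar at each group mean. Esrrb sits between 10.80 and 11.20 in the 7378K pools, below all 3 controls at 11.83 to 12.13.

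Esrrb, at chr12:86361117-86521628, gave the largest difference from control among the main probe sets of the 8 tested members, in both lights. Its main probe set read 11.95, 11.60 and 10.84 in 2954K pools, 10.83, 11.20 and 10.80 in 7378K pools, and 11.97, 11.83 and 12.13 in control pools. All 7378K pools lay below all controls, and the 2954K pools ran from the control level down to the 7378K level. The 7378K mean was 10.94 ± 0.23 and the control mean 11.97 ± 0.15 (SD, n = 3 pools each), a fall of 2.04-fold (log2 difference -1.03 ± 0.23 SE, 95% interval -1.52 to -0.54, limma adjusted p = 0.0288). The 2954K mean was 11.46 ± 0.57, a difference of -0.51 from control (95% interval -1.0 to -0.018, adjusted p = 0.365). The 7378K pools read 0.52 below the 2954K pools, with an interval of -1.01 to -0.030 and an adjusted p of 0.978, so that a difference between the 2 lights was not established.

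The other Esrrb probe sets had the same sign and did not pass. Probe set 1441921_x_at, whose suffix marks probes that can match other transcripts, read 9.88, 9.68 and 8.74 in 2954K pools, 9.24, 9.36 and 9.29 in 7378K pools, and 9.69, 9.65 and 9.54 in controls. The 7378K pools again lay below all controls, by 0.33 (limma adjusted p = 0.442 over 22646 probe sets). The dim probe set 1422986_at read 5.82, 7.05 and 5.67 in 2954K pools, 4.79, 5.91 and 6.43 in 7378K pools, and 6.92, 6.84 and 6.93 in controls. Its 7378K mean was under the dim filter, at -1.19 from control (adjusted p = 0.179). With the Gapdh and beta-actin covariate the 7378K differences were -0.54 and -0.59 for these 2 probe sets, and with dap -0.43 and -0.42, none of which passed.

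The Esrrb call was sensitive to which arrays entered. It ended on leaving out any 1 control pool (adjusted p 0.0704 to 0.0903) or any 1 7378K pool (0.0549 to 0.131), and on leaving out the third pool of every group, where the difference was -0.88 (adjusted p = 0.0612). With the 3′ excess of Gapdh and beta-actin as covariate it was -1.33 (adjusted p = 0.0497), and with that of dap -1.29 (adjusted p = 0.156). In both covariate fits the difference was thus larger, with a wider error. Averaging the 3 probe sets gave -0.85 (adjusted p = 0.0958), and a fit without the intensity trend left -1.03 with an adjusted p of 0.0918.

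Crx, at chr7:15865947-15879955, differed from control in opposite directions in its 2 probe sets, and neither passed. Its main probe set read 14.07, 13.67 and 13.95 in 2954K pools, 13.98, 13.95 and 13.90 in 7378K pools, and 13.74, 13.77 and 13.71 in controls. The 7378K pools lay above all controls and the second 2954K pool below them. The 7378K mean exceeded control by 0.20 (95% interval -0.029 to 0.44, limma adjusted p = 0.282) and the 2954K mean by 0.16 (adjusted p = 0.553). The second probe set, 1449185_at, read 11.0, 11.96 and 11.15 in 2954K pools, 10.99, 11.14 and 10.98 in 7378K pools, and 11.75, 12.11 and 11.53 in controls. Here the 7378K pools lay below all controls, by 0.76 (adjusted p = 0.088), and the 2954K pools read 0.43 lower (adjusted p = 0.453). That probe set passed as lower for 7378K when the first or the second 2954K pool was left out (adjusted p 0.0258 and 0.00688), and for 2954K, at -0.72, when the second was (adjusted p = 0.0189). On leaving out any 1 control pool (adjusted p 0.109 to 0.286) or any 1 7378K pool (0.186 to 0.237) it did not pass for 7378K. With only the 7378K and control groups fitted, it passed as lower (adjusted p = 0.00232) and the main probe set as higher (adjusted p = 0.041). With the replicate number as a block, 1449185_at also passed as lower for 7378K (limma adjusted p = 0.0278). It passed for 7378K in 4 of 19 alternative settings.

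Both Crx probe sets varied with the 3′ excess over the 9 pools, in opposite directions between the pools with a low and a high excess. Among the 3 controls alone, both were lower where the excess was larger. The 2954K pool with the highest 3′ excess, 2.78, had the highest main Crx signal of the 9 pools, and the 2954K pool at 0.21 had the lowest, next to the controls. That second pool was also the 1 LED pool whose other Crx probe set read 11.96, inside the control range. With the 3′ excess as covariate, the 7378K differences were 0.0095 for the main probe set and -0.29 for the other, and with that of dap they were -0.042 and -0.048. None of these passed over all probe sets (limma adjusted p 0.726 to 0.99).

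**Figure D2:**
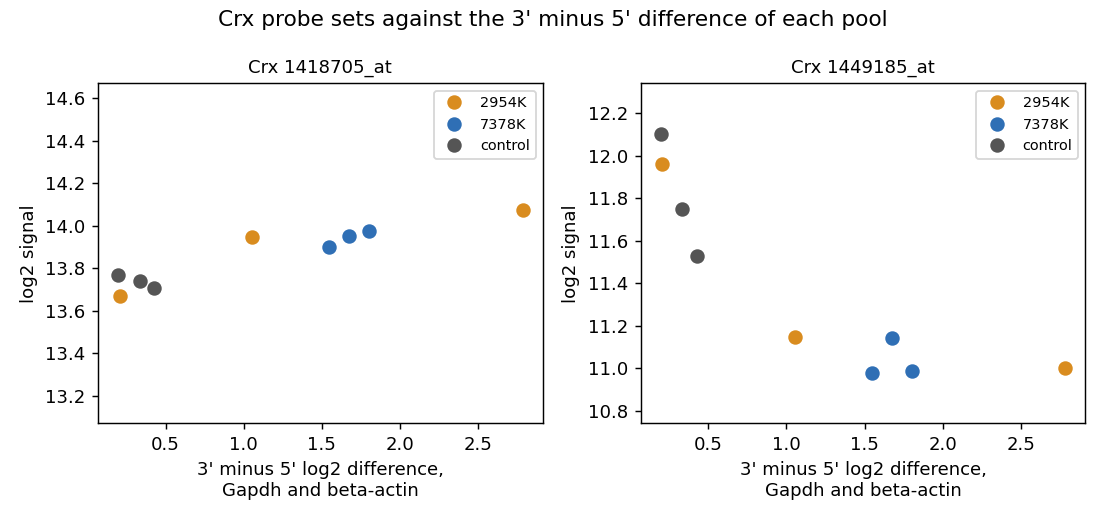
Log2 signal of the 2 Crx probe sets (vertical axes) against the 3′ excess, drawn as the 3′ minus 5′ log2 difference (horizontal axes), with 1 point per pool coloured by group. The main probe set is higher and the second lower in the 5 pools with an excess above 1, and the second 2954K pool, at 0.21, lies near the controls in both panels, below them in the first.

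The genes most like Crx over the 9 pools, by Pearson's r of log2 signal among all genes tested, were Pam16 (r = 0.99), Dctn1 (0.99) and Safb (0.98). Those most like Esrrb were Wdr31 (0.96), 3010001F23Rik (0.95) and Erlec1 (0.95), and those most like Mef2d were Phyhip, Grip2 and Fscn1 (each 0.98). These describe 9 pools that share group and array properties and carry no test.

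Nrl and Otx2, the rod and photoreceptor fate factors, read lower on average in 7378K pools than in controls and did not pass. Nrl, at chr14:55518978-55524981, read 14.82, 14.42 and 14.66 in 2954K pools, 14.53, 14.66 and 14.57 in 7378K pools, and 14.66, 14.85 and 15.11 in controls. The 7378K difference was -0.29 (95% interval -0.58 to -0.0018, limma adjusted p = 0.219), with every 7378K pool below every control, and the 2954K difference was -0.24 (adjusted p = 0.462). With the 3′ excess of Gapdh and beta-actin as covariate the 7378K difference was -0.49 (adjusted p = 0.167), and with that of dap -0.57 (adjusted p = 0.151). Otx2, at chr14:48656781-48667644, read 12.49, 13.08 and 12.96 in 2954K pools, 12.60, 12.59 and 12.67 in 7378K pools, and 12.73, 12.81 and 12.74 in controls. Its differences were -0.14 for 7378K (adjusted p = 0.557) and 0.083 for 2954K (adjusted p = 0.829), and the 7378K sign turned with either covariate, to 0.18 and 0.24.

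Rorb, at chr19:18930609-19111196, had 3 probe sets that were all lower on average in both LED groups. The main probe set read 11.79, 11.69 and 11.02 in 2954K pools, 11.50, 11.31 and 11.47 in 7378K pools, and 12.16, 11.89 and 11.53 in controls. The 7378K pools lay below all controls, at -0.43 (95% interval -0.86 to -0.0042, limma adjusted p = 0.217), and the 2954K pools at -0.36 (adjusted p = 0.459). Probe set 1425162_at differed by more and read 10.56, 10.30 and 9.06 in 2954K pools, 9.64, 9.85 and 9.84 in 7378K pools, and 10.68, 11.41 and 10.98 in controls. Both LED groups lay below every control here, by 1.24 for 7378K (95% interval -1.96 to -0.53 for the signed difference, adjusted p = 0.0685) and by 1.05 for 2954K (adjusted p = 0.262). When any 1 2954K pool was left out it passed as lower for 7378K (adjusted p 0.0083 to 0.0289). On leaving out any 1 control pool (adjusted p 0.122 to 0.249) or any 1 7378K pool (0.168 to 0.214) it did not pass. It passed as lower with only the 7378K and control groups fitted (adjusted p = 0.000442). With the replicate number as a block it also passed (adjusted p = 0.0435). It passed for 7378K in 5 of 19 alternative settings. With the Gapdh and beta-actin covariate this probe set's 7378K difference was -1.50 (adjusted p = 0.189), and with dap -1.32 (adjusted p = 0.44). The third, 1455799_at, differed by -0.22 (adjusted p = 0.535), and by -0.56 and -0.62 with the 2 covariates (adjusted p 0.362 and 0.473).

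**Figure D3:**
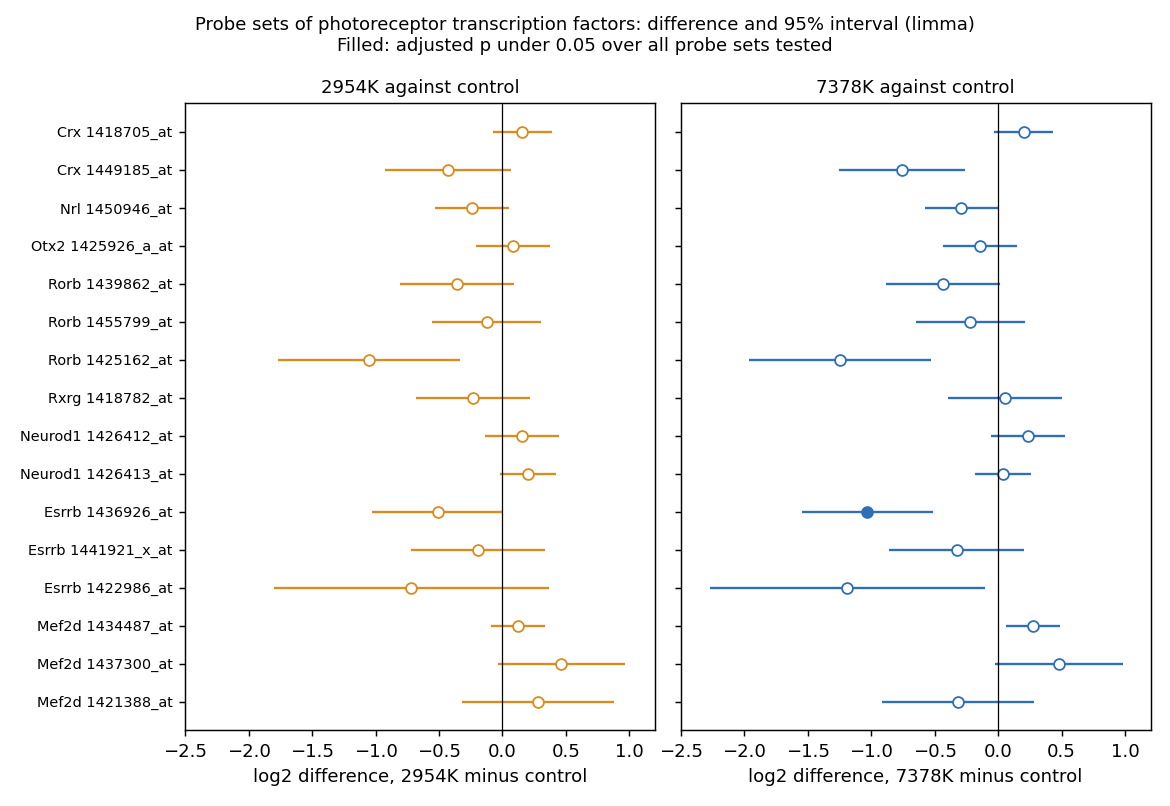
Log2 difference with its 95% interval for each of the 16 tested probe sets of the 8 genes, 2954K and 7378K each against control. The probe sets of Esrrb and Rorb lie left of 0 in both contrasts, those of Crx fall on opposite sides, and only the Esrrb main probe set at -1.03 passed the test over all probe sets.

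Of the cone factors, Thrb was too dim to test and Rxrg did not pass. Thrb, at chr14:17659225-18040097, had a mean under the dim filter, with 5.50, 6.42 and 5.44 in 2954K pools, 5.30, 5.25 and 6.57 in 7378K pools, and 5.95, 5.65 and 6.58 in controls. The groups overlapped, and in a fit without the filter the differences were -0.36 for 7378K (limma adjusted p = 0.797) and -0.28 for 2954K (adjusted p = 0.895). Rxrg, at chr1:167598362-167639623, read 7.08, 7.43 and 7.24 in 2954K pools, 7.57, 7.58 and 7.46 in 7378K pools, and 7.39, 7.47 and 7.60 in controls. All 7378K pools lay above all 2954K pools, as in 5.27% of all genes, by 0.29 (95% interval -0.16 to 0.73, adjusted p = 0.978), and against control the differences were 0.055 for 7378K and -0.23 for 2954K, with adjusted p of 0.902 and 0.662. The 7378K difference was 0.21 and 0.26 with the 2 covariates (adjusted p 0.879 and 0.886).

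Neurod1 and Mef2d, which act alongside Crx, read higher on average in both LED groups and did not pass. Neurod1, at chr2:79452637-79456636, read 14.00, 14.17 and 14.04 in 2954K pools, 14.30, 14.05 and 14.12 in 7378K pools, and 14.02, 14.12 and 13.62 in controls, with groups that overlapped. Its differences were 0.24 for 7378K (limma adjusted p = 0.307) and 0.15 for 2954K (adjusted p = 0.653), and with the dap covariate the 7378K difference was 0.43 (adjusted p = 0.46). Its second probe set, 1426413_at, read 14.07, 14.16 and 14.13 in 2954K pools, 14.16, 13.84 and 13.87 in 7378K pools, and 13.91, 13.97 and 13.87 in controls. Here the 2954K pools lay above all controls, by 0.20 (adjusted p = 0.432), and the 7378K difference was 0.039, or 0.074 and 0.11 with the 2 covariates. Mef2d, at chr3:88141941-88172091, read 12.82, 12.58 and 12.49 in 2954K pools, 12.74, 12.84 and 12.77 in 7378K pools, and 12.51 in each of the 3 controls. All 7378K pools lay above the controls, by 0.27 (95% interval 0.060 to 0.49, adjusted p = 0.133), and the 2954K difference was 0.12 (adjusted p = 0.622). With the Gapdh and beta-actin covariate the 7378K difference was 0.13 (adjusted p = 0.744), and with dap 0.12 (adjusted p = 0.839). Without the first 2954K pool Mef2d passed as higher for 7378K (adjusted p = 0.0279). On leaving out any 1 control pool (adjusted p 0.210 to 0.315) or any 1 7378K pool (0.270 to 0.306) it did not pass. The other Mef2d probe sets did not share a sign in 7378K pools: 1437300_at differed by 0.48 (0.31 with the Gapdh and beta-actin covariate) and 1421388_at by -0.31.

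Whether groups overlapped was counted over members and over all genes. In 7378K pools 4 of 8 members lay wholly below the controls and 2 wholly above, where 14.8% and 21.6% of all genes did. In 2954K pools 0 of 8 members stood apart from the controls, where 15.2% of all genes did. Over the 16 tested probe sets, 8 lay wholly below the controls in 7378K pools, where 20.3% of all probe sets did, and 2 wholly above, where 17.5% did. In 2954K pools 1 lay wholly above, Neurod1 1426413_at, and 1 wholly below, Rorb 1425162_at, where 6.68% and 7.45% of all probe sets did. Of the 16, 1 passed for 7378K, the main Esrrb probe set, where 2.51% of all probe sets did, 1.12% as lower, and 0 passed for 2954K, where 0.64% did. The 16 include several probe sets per gene, which share their transcripts.

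Genes that the factors act on, or act with, were read from lists chosen with earlier results of these data known. Of 27 rod genes tested, targets of Crx and Nrl, 7 fell and 0 rose in 7378K retinas, 23 differences were negative, and the median was -0.25, where that of all genes was 0.045. Over all genes 1.16% passed as lower. Kcnj14, an inward rectifier potassium channel subunit, read 12.42, 12.75 and 12.64 in 2954K pools, 12.21, 12.33 and 12.30 in 7378K pools, and 13.12, 13.17 and 13.29 in controls. Both LED groups lay below every control, and Kcnj14 fell in both, by 0.91 in 7378K (limma adjusted p = 0.000374) and by 0.59 in 2954K (adjusted p = 0.0139). It was the 1 rod gene of 27 that passed for 2954K, where 0.188% of all genes passed as lower, and 25 of the 27 differences were negative, with a median of -0.20. Ppef2, a rod protein phosphatase, fell by 0.74 in 7378K retinas (adjusted p = 0.0021), and Cngb1 and Cnga1, the subunits of the rod cyclic nucleotide-gated channel, fell by 0.71 and 0.49 (adjusted p 0.00682 and 0.00901). Prph2, which shapes the outer segment disc rim, fell by 0.80 (adjusted p = 0.0271), and Reep6, a rod membrane-trafficking protein, by 0.53 (adjusted p = 0.0317). Gnat1 did not pass, with a difference of 0.032. With the Gapdh and beta-actin covariate 4 of 27 passed, all lower, and with the dap covariate 3. Kcnj14, Reep6 and 1 rod gene that was not among the 7 were in both sets. Ppef2 passed with the Gapdh and beta-actin covariate and not with dap, and Cngb1, Cnga1 and Prph2 passed with neither. Leaving out 1 pool gave 3 to 11 lower rod genes for 7378K: 4, 3 and 4 without control pools 1, 2 and 3 in turn, 3, 5 and 4 without 7378K pools 1, 2 and 3, and 11 without the first 2954K pool. Without the second control pool, or without the third pool of every group, Kcnj14 missed the threshold for 2954K, and without the second 2954K pool 3 rod genes passed for it. Without the third pool of every group 2 passed for 7378K, Kcnj14 and Ppef2; the third pools are those with the high lens signal, whose part in the result was not tested.

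**Figure D4:**
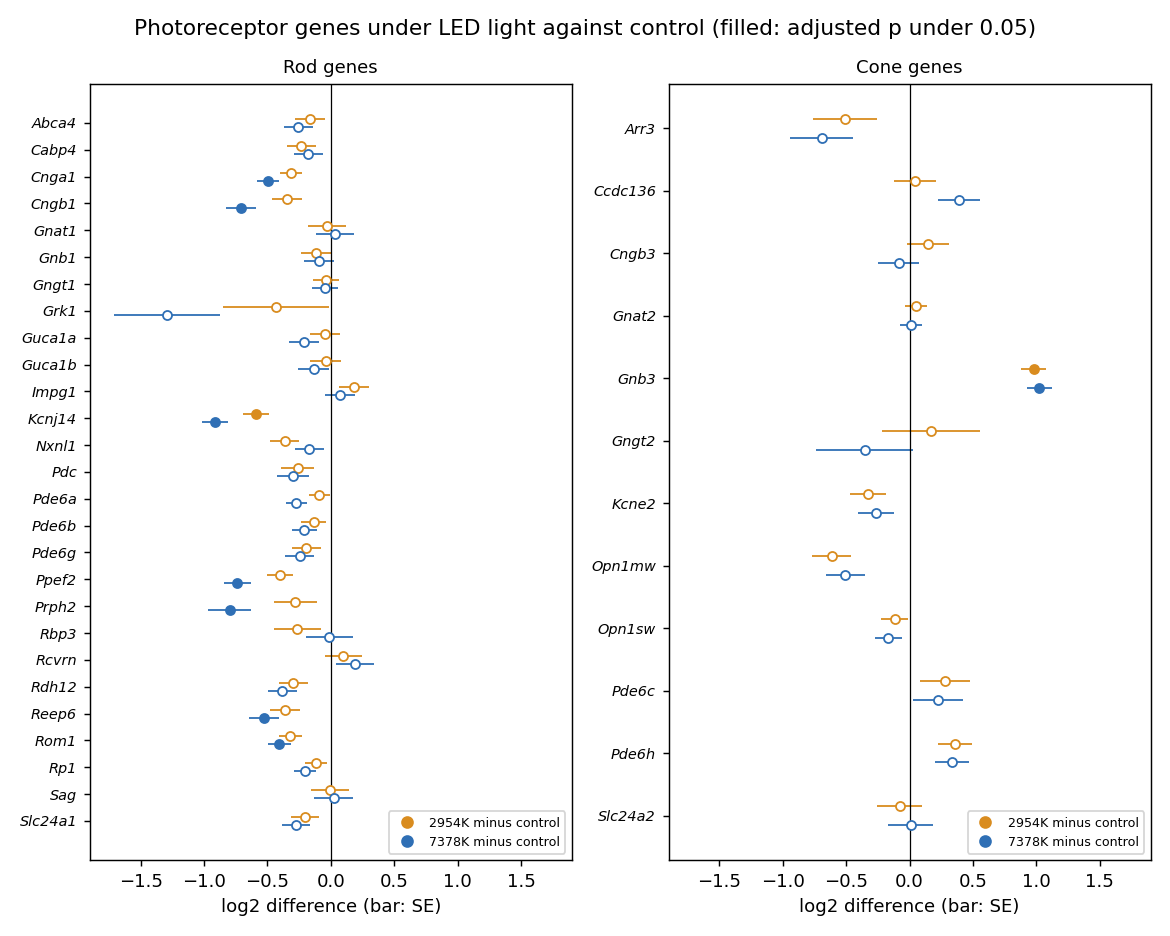
Log2 differences from control for the tested rod and cone genes of the lists, 7378K and 2954K, with bars of 1 SE and filled points for genes that passed an adjusted p under 0.05. Rod genes lie mostly left of 0 for both lights, and Gnb3 stands alone at the right among cone genes, at 1.02 for 7378K and 0.98 for 2954K.

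Of 12 cone genes tested, 1 rose in both lights and 0 fell, where 2.36% of all genes passed as higher for 7378K and 1.03% for 2954K. Gnb3, a G protein beta subunit of cones and bipolar cells, read 13.54, 13.74 and 13.79 in 2954K pools, 13.73, 13.77 and 13.72 in 7378K pools, and 12.67, 12.85 and 12.62 in controls. Both LED groups lay above every control, by 1.02 in 7378K (limma adjusted p = 0.000119) and by 0.98 in 2954K (adjusted p = 0.000234), and the call held with either covariate. Opn1sw differed by -0.17 and -0.12 in 7378K and 2954K, and Arr3, the cone arrestin, by -0.69 and -0.51, none of which passed. Of 6 genes that handle thyroid hormone, the ligand of Thrb, 1 rose: Crym, a cytosolic thyroid hormone-binding protein, by 1.45 in 7378K retinas (adjusted p = 5.06e-05) and by 1.22 in 2954K retinas (adjusted p = 0.000284). Crym read 10.29 to 10.74 in controls and at least 11.65 in every LED pool.

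Among 20 other regulators of photoreceptor fate, 3 rose and 0 fell in 7378K retinas, where 2.36% and 1.16% of all genes did. Rax, a homeodomain factor of retinal progenitors and photoreceptors, read 10.16, 10.04 and 10.15 in 2954K pools, 10.08, 10.16 and 10.01 in 7378K pools, and 9.63, 9.54 and 9.76 in controls. It lay above every control in both lights, and rose by 0.44 in 7378K (limma adjusted p = 0.0486), where the 2954K difference of 0.47 had an adjusted p of 0.0665. Casz1, a zinc finger factor of photoreceptors, rose by 0.81 (adjusted p = 0.033) and Notch1, a receptor that holds back photoreceptor differentiation, by 0.66 (adjusted p = 0.0146) in 7378K retinas. For 2954K 0 of the 20 passed by limma, 5 had an unadjusted p under 0.05 where 13.1% of all genes did, and the other 2 with the lowest p values were Casz1 at 0.71 and Prdm1, which favours photoreceptor over bipolar fate, at -0.60 (adjusted p 0.108 and 0.127). With either 3′ excess as covariate, or with a gene's probe sets averaged, 0 of the 20 passed in 7378K retinas, and 0 passed without the second control pool, any 1 7378K pool or the third pool of every group. Without the first control pool 1 passed, and without the second 2954K pool 3 rose and 1 fell for 2954K.

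Of 16 close relatives of the members by protein family, Nr2e1, a nuclear receptor related to Nr2e3, rose by 1.16 (limma adjusted p = 0.0443) and Mef2c, a relative of Mef2d, fell by 0.43 (adjusted p = 0.0444) in 7378K retinas. Over all genes 3.52% passed for 7378K. Mef2c read 10.27, 10.05 and 10.16 in 2954K pools, 10.19, 10.01 and 10.17 in 7378K pools, and 10.58, 10.50 and 10.58 in controls. It lay below every control in both lights, with a 2954K difference of -0.39 (adjusted p = 0.117). Neither Nr2e1 nor Mef2c passed with either covariate, and 0 of the 16 passed for 2954K, where 5 had an unadjusted p under 0.05, as did 13.1% of all genes. Both calls were lost without any 1 control pool, any 1 7378K pool or the third 2954K pool, whereas 3 rose without the first 2954K pool and 2 without the second.

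Markers of other retinal cells were read beside these genes. Over all genes 2.36% passed as higher for 7378K and 1.03% for 2954K. Of 11 bipolar cell markers, cells that also express Otx2 and Crx, 1 rose in 7378K retinas, Isl1 by 0.47 (limma adjusted p = 0.018). Of the 11 differences for 7378K, 6 were positive and 5 negative. The mean of the 11 was 9.83 to 10.10 in 2954K pools, 9.68 to 9.91 in 7378K pools and 9.87 to 10.10 in controls. Of 10 microglia markers, genes of resident macrophages, 8 rose in each light, and their mean was 9.11 to 9.13 in 2954K pools, 9.19 to 9.27 in 7378K pools and 7.00 to 7.82 in controls. Of 9 Müller glia markers, Aqp4, the glial water channel, rose by 0.58 in 7378K and by 0.57 in 2954K (adjusted p 0.0131 and 0.0256). In each light 5 of the 9 differences were positive and 4 negative. With either covariate neither Isl1 nor Aqp4 passed, and 5 and 6 microglia markers rose in 7378K and 2954K. Neither Isl1 nor Aqp4 passed with a gene's probe sets averaged, where Cabp5, a bipolar marker, passed as lower in 7378K. Without the third pool of every group neither passed, and Vim, a Müller marker, rose in both lights. Of 12 amacrine and horizontal cell markers, 7 ganglion cell markers, 11 pigment epithelium markers and 9 lens markers, 0 passed by limma in either light, and at an unadjusted p under 0.05 there were 1, 1, 0 and 0 for 7378K and 1, 0, 0 and 0 for 2954K. Over all genes 13.1% had an unadjusted p under 0.05 for 2954K, and the share for 7378K is not given here. The 11 pigment epithelium markers were all higher on average in 2954K pools than in controls (median 0.88, where that of all genes was 0.011) and all lower on average in 7378K than in 2954K pools (median -0.75, where that of all genes was 0.029). Without the third pool of every group 4 of them passed as higher in 2954K, Dct, Rdh5, Rgr and Rpe65, enzymes and an opsin of that layer, of which Dct, Rdh5 and Rgr are named after their values were seen. The part of a changed cell make-up in the values of the transcription factors, Otx2 included, was not tested.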

How the data were processed

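RNA from 9 retina pools was measured on Affymetrix Mouse Genome 430 2.0 arrays. The deposited values, for which the submitters' processing notes list MAS5 and affy with no version, role or order, are probe set signals on a log2 scale. Taken out of the log, each array had a 2% trimmed mean of 500, so the arrays were scaled to a common mean, and they were used unchanged. Array number limits the precision.

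Of 45101 probe sets, the 34945 with 1 gene symbol in the platform annotation were used (932 had several), 1 per gene (highest mean), and all 9 member genes matched RefSeq by gene ID. Alternatives covered normalization, filter, probe set choice, fit, 3′ excess as covariate, replicate block and left-out pools. Genes under the 40th percentile of all probe sets, a log2 signal of 5.91, were dropped as dim. Linear models with 1 mean per group over all 9 arrays (6 residual degrees of freedom) were fitted with limma 3.58.1 in R 4.3.3, with an intensity trend and Benjamini-Hochberg adjustment over 12761 genes or 22646 probe sets, called at an adjusted p under 0.05, and tested on simulated data. Figures were drawn with matplotlib 3.10.9. The labels call the pools biological replicates. Named genes were the members, up to 6 called genes of each list by lowest p (or the 3 lowest p where 0 were called), and 4 genes for level (Gnat1, Opn1sw, Arr3 and Rpe65). Opn1mw, Rom1 and other listed genes are counted only. Members and lists were chosen with earlier results of these data known. RNA integrity numbers and array dates were not used here.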

Additional observations from a re-analysis of the deposited data

How the results depend on the processing

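Over 40 values of the transcription factors and 20 alternative settings, 734 of 777 values kept direction and side of the threshold, 10 lost a call (all Esrrb for 7378K, given above), 14 gained one and 19 changed sign. The cause was not tested. Genes passing were 156 for 2954K and 449 for 7378K against control: 82 and 255 with a gene's probe sets averaged, 101 and 207 without the intensity trend, 68 and 2174 with only the groups compared fitted, 102 and 136 with the Gapdh and beta-actin covariate, 117 and 77 with the dap covariate, and 90 and 145 without the third array of every group. Leaving out 1 pool gave 79 to 893 (893 without the second 2954K pool) for 2954K, 144 to 1519 (1519 without the first 2954K pool) for 7378K, and 0 to 29 for 7378K against 2954K. Members passing for 7378K, 1 in all, were 2 with quantile normalization (Nrl, adjusted p = 0.0443) and 3 with only 2 groups fitted. These 3 were Esrrb as lower and Mef2d and Crx as higher, with Crx 1449185_at passing as lower in the same fit. Members passing were 0 with averaged probe sets, without the trend, with the dap covariate or without the third arrays, and 0 to 2 leaving out 1 pool. Of their probe sets 1 passed for 7378K, 0 without the filter, without the trend, with either covariate or without the third arrays, 6 with 2 groups fitted, and 0 to 4 leaving out 1 pool, against 0 to 1 for 2954K and 0 to 1 for 7378K against 2954K. With the replicate block 163 and 638 genes passed, 1 member, and 3 of the members' probe sets: the main Esrrb one, Crx 1449185_at (-0.76, adjusted p = 0.0278) and Rorb 1425162_at (-1.24, adjusted p = 0.0435). The 9 same-numbered pairs of pools correlated at 0.0607 to 0.332, and 8 of 9 arrays correlated best with their own number, a hint of pairing from the data. Pairs with different numbers correlated at 0.0919 at most, and the third pools of all groups shared the high lens signal. Only 5 of the 9 same-numbered pairs were over 0.1 and the labels name no shared litter, batch or day. The numbers were therefore not taken to pair the pools, and a shared effect of the number remains possible. Signs turned with averaged probe sets for Crx (-0.28 for 7378K, -0.14 for 2954K, -0.14 for 7378K against 2954K), and, for 7378K against 2954K, Mef2d (-0.14) and Neurod1 (-0.038). They turned for 7378K with the Gapdh and beta-actin covariate for Otx2 (0.18), and with dap for Otx2 (0.24) and Crx (-0.042, and -0.074 against 2954K). Quantile normalization gave -0.083 for Neurod1 1426413_at in 7378K, and leaving out the third arrays 0.11 for Esrrb 1441921_x_at in 2954K. Leaving out 1 pool gave, for 7378K against 2954K, -0.066 to 0.14 for Crx, -0.16 to 0.042 for Nrl and -0.31 to 0.070 for Rorb. For 2954K it gave -0.036 to 0.26 for Otx2, -0.42 to 0.15 for Esrrb 1441921_x_at and -0.35 to 0.0071 for Rorb 1455799_at, and for 7378K -0.062 to 0.098 for Neurod1 1426413_at. The 3′ excess of 7378K over control, 1.36, was 1.14 for the dap spike-in. Rxrg was not tested with the filter at the 60th percentile.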
